A study of Mus musculus with 11 samples.

Results

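The 10 genes described here, H19, Igf2, Kcnq1ot1, Kcnq1, Cdkn1c, Phlda2, Slc22a18, Ascl2, Tssc4 and Cd81, lie in the neighbouring H19-Igf2 and Kcnq1 imprinted domains of mouse chromosome 7. They were chosen by symbol for their position in these domains, not by their values. All 10 were found among the 55228 gene symbols of the count table, and all 10 were among the 16420 genes with enough counts to be tested. Imprinted genes are transcribed mainly from the chromosome inherited from a single parent. In the H19-Igf2 domain, CTCF, a zinc finger protein that binds DNA, is known to bind the unmethylated maternal control region upstream of H19. There it insulates Igf2, which encodes a fetal growth factor, from enhancers that both genes share, so that H19 is maternal and Igf2 paternal. In the Kcnq1 domain the long antisense RNA Kcnq1ot1 starts within Kcnq1 on the paternal chromosome and silences the genes around it in cis. The counts do not separate parental chromosomes, so every value below is the sum of both.

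The cells were mouse embryonic stem cells (mESCs) labelled EN52.9.1 (CTCF-AID), in which endogenous CTCF carries a degron and is degraded when the auxin analogue indole-3-acetic acid is added. All 11 RNA-seq libraries came from this line, the untreated ones included, and the cells were grown in serum with leukemia inhibitory factor. The EV untreated group (3 libraries, titled EV_UT, genotype label wild-type) received no auxin. The EV auxin group (2 libraries, titled EV_aux, endogenous CTCF depletion) received 500 µM auxin. 1 more replicate of that group was not analysed here. The FL auxin group (3 libraries, reintroduction of FL CTCF) and the H373R auxin group (3 libraries, reintroduction of H373R CTCF, titled ZF4) received auxin as well. The time in auxin, the promoter driving the reintroduced proteins and their protein levels were not given in the sources used here, and no auxin-treated line without the degron was analysed here. Nothing in the labels says that replicates were separate cultures, so p-values measure only the spread between these libraries, which may be technical.

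Total counts ran from 13465241 to 29902246 per library. All 14 embryonic stem cell markers of the list used here averaged at least 1 TPM in every group. TPM is a level scaled for gene length and library size. Their summed levels were 13198 to 14338 TPM over the 11 libraries. Single markers did differ by the edgeR test given below. In EV auxin 1 was higher and 3 lower than in EV untreated (20.7% of all tested genes called). Against EV untreated the counts were 6 and 3 in FL (36.9%) and 3 and 6 in H373R (44.4%). Against EV auxin they were 6 and 2 in FL (24.5%) and 3 and 2 in H373R (21.7%). Against FL, H373R had 0 and 1 (5.96%). The placental markers Tpbpa and Prl3d1 had no counts in any group. EV untreated replicate 1 stood apart from its group. Its deviation from the group mean followed the GC content of genes (r = 0.56 across 16215 genes, which are not independent replicates). FL replicate 1 deviated from its own group in the same direction, at r = 0.32. EV untreated replicates 2 and 3 gave r = -0.38 and -0.32. Deviations within a group cancel for each gene, so these signs are not independent of that of replicate 1. Of the 10 genes 9, all but Kcnq1ot1, have a GC content above the median of tested genes. In EV untreated replicate 1, 9 of the 10 genes were higher than the mean of EV untreated replicates 2 and 3, and only Kcnq1 was lower. The largest rise was that of Kcnq1ot1, at 0.56 on the log2 scale, although its GC content was above that of only 6.5% of tested genes. Kcnq1 stood at -0.56 in this library, although its GC content was above that of 85.5% of tested genes. Calls of the 10 genes that change without this library, or with GC and length trends removed (an alternative added after seeing the data), are given with each gene.

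Because CTCF contacts DNA and the series asks how CTCF relates to G-quadruplexes (folded structures of G-rich DNA), promoter sequences were read from RefSeq, build GRCm38.p6. Promoters of 7 of the 10 genes were matched, 10 in all, each taken as the 250 bases before a transcription start. H19, Kcnq1 and Cdkn1c had no match. G-quadruplex motifs were searched as 4 runs of GGG with 1 to 7 bases between them, and the CTCF core motif as GGNGGCAG alone (short core) and preceded by CCGCGN (long core), all on both strands. These motifs can overlap each other in G-rich stretches. The following promoters are shown because Igf2, Ascl2 and Cd81 hold motifs and differ between groups below, and because Kcnq1ot1 holds none. Phlda2 holds both motifs as well but was not called in the main test below, and it is not printed. Slc22a18 and Tssc4 hold none and were not called in that test either. Since this choice used the calls, the printed set cannot show whether motifs go with differences. Capitals mark motif matches, and each sequence runs 5′ to 3′ on the strand of its gene.
Igf2, chr7:142657497-142657746 (minus strand): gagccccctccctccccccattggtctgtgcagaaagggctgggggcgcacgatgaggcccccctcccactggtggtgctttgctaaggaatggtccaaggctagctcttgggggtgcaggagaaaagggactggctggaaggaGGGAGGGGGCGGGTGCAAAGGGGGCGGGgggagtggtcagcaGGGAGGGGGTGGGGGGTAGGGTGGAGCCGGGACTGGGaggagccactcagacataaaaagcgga
Igf2, chr7:142658805-142659054 (minus strand): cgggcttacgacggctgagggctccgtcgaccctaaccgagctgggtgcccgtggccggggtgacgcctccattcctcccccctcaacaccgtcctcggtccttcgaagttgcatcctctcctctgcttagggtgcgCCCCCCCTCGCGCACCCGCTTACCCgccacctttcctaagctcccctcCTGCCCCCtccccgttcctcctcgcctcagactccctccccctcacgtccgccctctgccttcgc
Ascl2, chr7:142969265-142969514 (minus strand): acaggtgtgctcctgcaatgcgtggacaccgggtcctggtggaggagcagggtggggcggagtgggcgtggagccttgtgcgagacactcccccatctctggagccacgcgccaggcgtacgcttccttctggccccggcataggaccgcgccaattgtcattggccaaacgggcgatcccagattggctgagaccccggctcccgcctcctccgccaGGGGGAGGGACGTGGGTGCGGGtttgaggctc
Cd81, chr7:143052500-143052749 (plus strand): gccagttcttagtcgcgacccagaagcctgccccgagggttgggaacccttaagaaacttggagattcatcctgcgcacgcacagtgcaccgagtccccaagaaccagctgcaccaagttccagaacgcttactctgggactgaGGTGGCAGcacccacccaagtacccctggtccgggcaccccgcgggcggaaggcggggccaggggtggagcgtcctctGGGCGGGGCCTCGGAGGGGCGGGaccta
Kcnq1ot1, chr7:143296548-143296797 (minus strand): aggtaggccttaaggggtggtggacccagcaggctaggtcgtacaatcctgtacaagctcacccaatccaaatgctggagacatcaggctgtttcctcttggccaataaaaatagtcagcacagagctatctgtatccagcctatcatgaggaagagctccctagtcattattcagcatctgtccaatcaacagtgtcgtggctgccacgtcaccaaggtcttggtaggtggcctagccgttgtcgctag
Both printed Igf2 windows lie inside the annotated Igf2 gene, before alternative starts. Igf2 windows without any motif were not printed. They are chr7:142666817-142667066, just before the annotated start of the gene, and chr7:142661272-142661521. Igf2 thus counts more than once among the 10 promoters. The G-quadruplex motif was present in 5 of the 10 promoters, those of Phlda2, Ascl2 and Cd81 and the printed Igf2 pair, against 16.6% of 32851 mouse promoters of the same length. The short CTCF core was present in 3, those of Phlda2 and Cd81 and the second printed Igf2 window, against 9.93% of all promoters. The long core was in none of the 10 and in 11 of the 32851. A match is a run of letters and not a measured site, and CTCF binding was not measured here.

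Levels were compared between genes as TPM and between groups as CPM (counts scaled to library size, with TMM factors). In EV untreated cells Phlda2 and Cd81 were the most abundant of the 10, at 202 ± 27.9 and 166 ± 4.05 TPM (SD, n = 3). Cdkn1c (72.1 ± 11.9 TPM), Tssc4 (46.2 ± 8.34 TPM) and Ascl2 (30.4 ± 6.98 TPM) followed. H19 (7.61 ± 1.58 TPM) and Slc22a18 (5.61 ± 1.18 TPM) were low, and Igf2 (1.22 ± 0.161 TPM), Kcnq1 (0.383 ± 0.260 TPM) and Kcnq1ot1 (0.0965 ± 0.0274 TPM) were lower still. Neighbours in this order did not overlap between the 3 libraries, except H19 and Slc22a18, and no test between genes was run. Kcnq1 rested on only 5 to 29 counts per library, so small differences in it were not detectable at this depth.

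**Figure D1:**
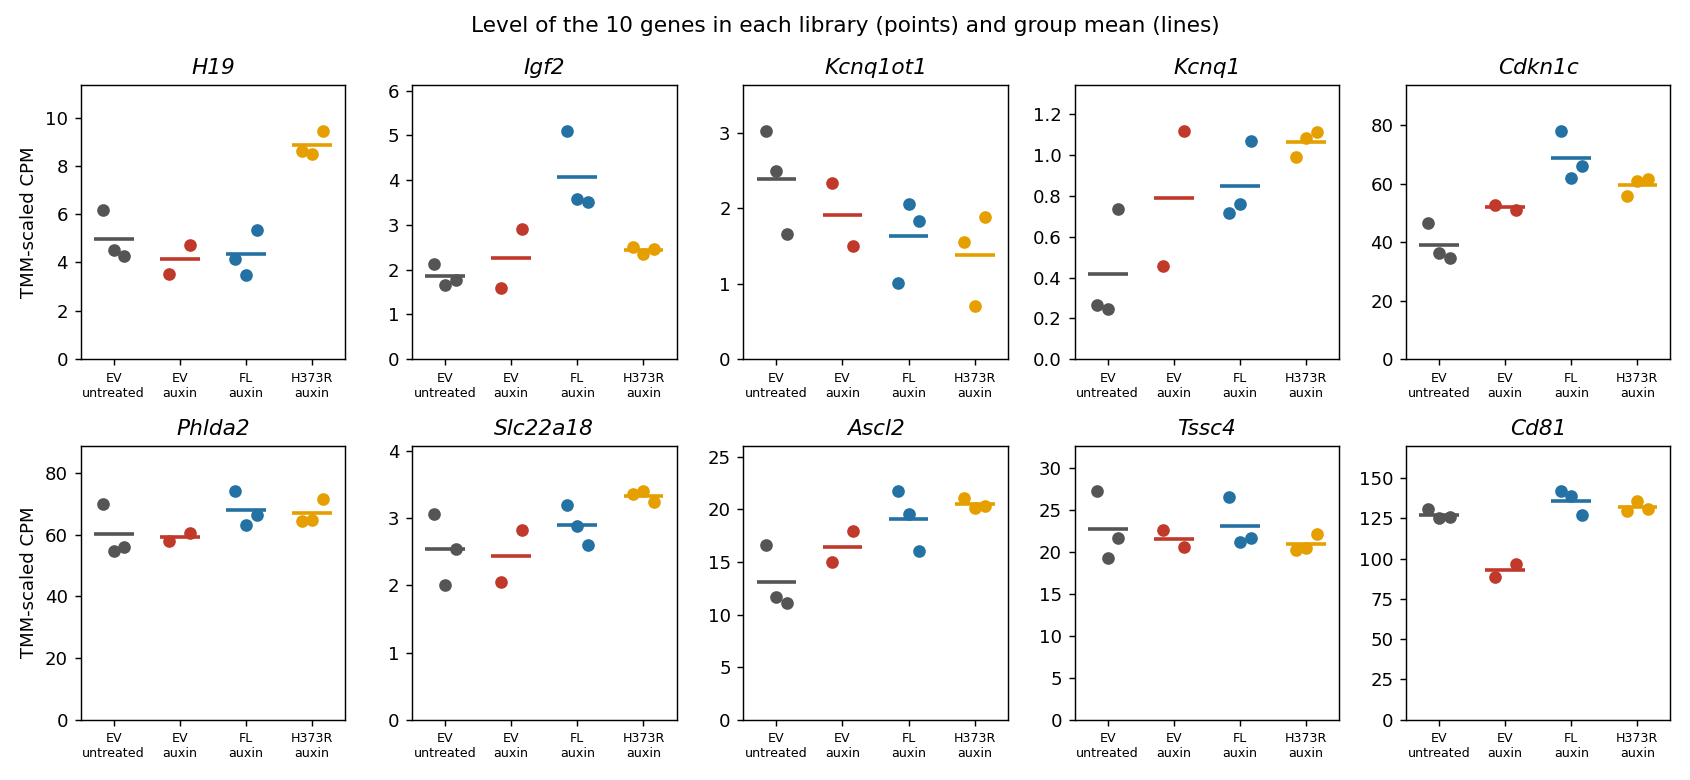
Level of each of the 10 genes (TMM-scaled CPM, linear axis from 0, separate scale per gene) in the 11 libraries, with 1 point per library and a bar at the group mean. H19 stands highest in the 3 H373R libraries (8.49 to 9.46 CPM), Igf2 in the 3 FL libraries (3.52 to 5.11 CPM), and Cd81 lowest in the 2 EV auxin libraries (88.8 and 96.7 CPM).

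Genes were called changed at an adjusted p under 0.05 in edgeR's quasi-likelihood test, with Benjamini and Hochberg's adjustment over all 16420 tested genes. Of the 10 genes, 6 were called in at least 1 of the 6 comparisons and 4 (Kcnq1ot1, Phlda2, Slc22a18 and Tssc4) in none. Between EV auxin and EV untreated, 2 of 10 were called (Cdkn1c higher, Cd81 lower), where 20.7% of all tested genes were called, 11.3% higher and 9.4% lower. FL differed from EV auxin in 3 of 10, all higher (Igf2, Cdkn1c and Cd81), where 24.5% of all genes were called, 11.1% higher and 13.4% lower. H373R differed from EV auxin in 2 of 10, both higher (H19 and Cd81), where 21.7% of all genes were called, 10% higher and 11.7% lower. Between H373R and FL, 2 of 10 were called (H19 higher, Igf2 lower) where 5.96% of all genes were, 3.14% higher and 2.82% lower. Against EV untreated, FL differed in 3 of 10, all higher (Igf2, Cdkn1c and Ascl2), where 36.9% of all genes were called, 17.7% higher and 19.2% lower. H373R differed from EV untreated in 4 of 10, all higher (H19, Kcnq1, Cdkn1c and Ascl2), where 44.4% of all genes were called, 22.3% higher and 22.1% lower. Most of these shares were near the share of all genes, and 10 genes are too few for a difference from it to be read. Comparisons that share a group share its libraries and are not independent of each other.

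The median log2 difference over the 10 genes was -0.040 for auxin in EV cells. Relative to EV auxin it was 0.20 for FL and 0.25 for H373R, and between H373R and FL it was -0.032. Against EV untreated it was 0.17 for FL and 0.37 for H373R. The median over all tested genes lay between -0.014 and 0.0087 in the same 6 comparisons. TMM scaling holds that median near 0, so it is no yardstick for the 10 genes. Without sign, the median over the 10 genes ran from 0.17 (H373R against FL) to 0.49 (H373R against EV untreated). Over all tested genes it was 0.11 and 0.23 in these comparisons. No test between these medians was run.

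**Figure D2:**
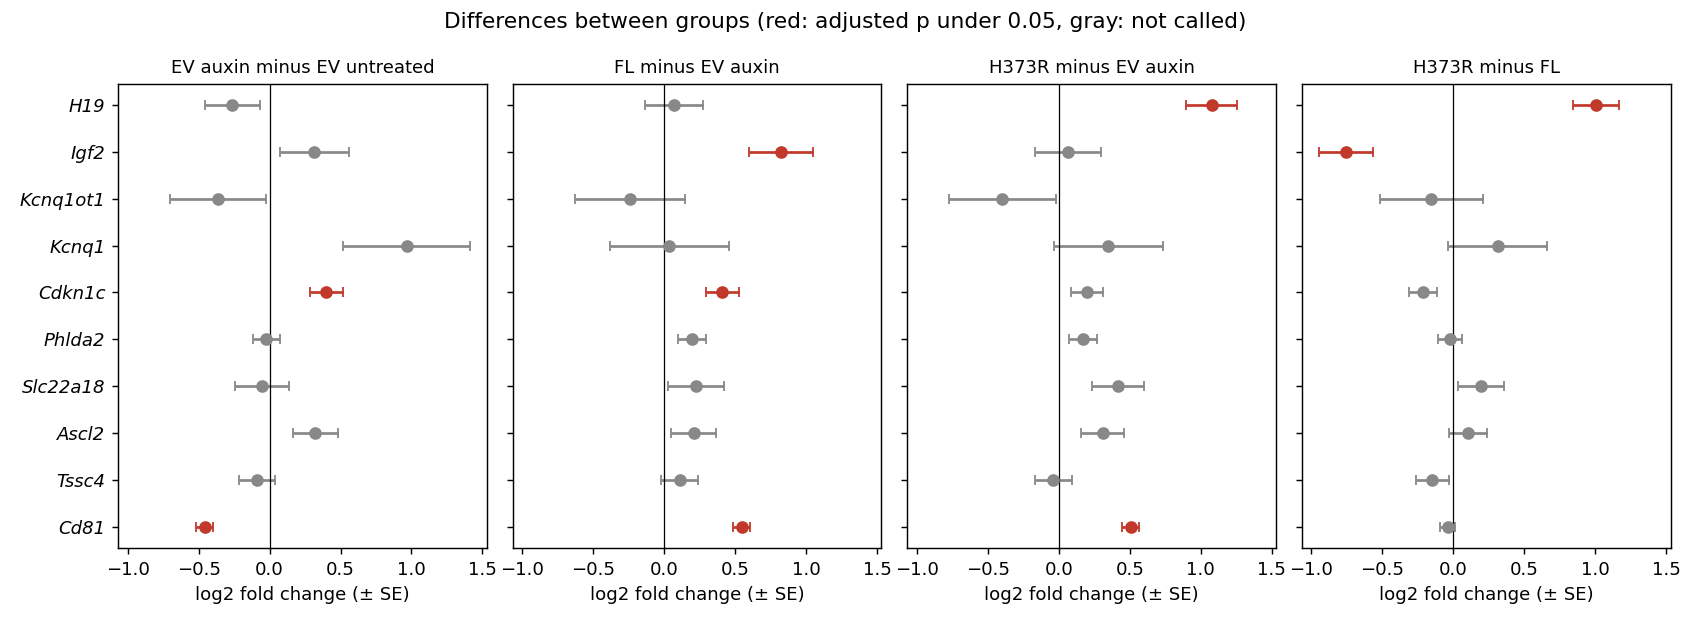
Log2 fold change of the 10 genes from edgeR's quasi-likelihood fit. The panels show EV auxin against EV untreated, FL and H373R each against EV auxin, and H373R against FL. FL and H373R against EV untreated are not drawn. Bars are 1 standard error, with red points for an adjusted p under 0.05 and grey points for the others. Cd81 moved by -0.46 with auxin in EV cells and by 0.55 and 0.51 with FL and H373R. H19 was red only in the panels with H373R.

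H19 (GRCm38 chr7:142575529-142578143, minus strand, gene ENSMUSG00000000031.16, annotated as lincRNA in GENCODE M21) encodes a long noncoding RNA that is also the precursor of the microRNA miR-675. It had 6.19, 4.50 and 4.26 CPM in the EV untreated libraries, 3.54 and 4.73 CPM in the EV auxin libraries and 4.15, 3.49 and 5.35 CPM in the FL libraries. In the H373R libraries it had 8.60, 8.49 and 9.46 CPM. All 3 H373R libraries were above every library of the other groups, and the other groups overlapped each other. H19 was 2.01-fold higher in H373R than in FL (log2 fold change 1.01 ± 0.162, SE, edgeR adjusted p 0.00150). Against EV auxin the log2 difference was 1.08 ± 0.181 (SE, edgeR adjusted p 0.000824), and against EV untreated it was 0.82 ± 0.148 (SE, edgeR adjusted p 0.000390). All of these calls held in each of 23 alternatives, and the H373R to FL difference ranged from 0.90 to 1.19 over them. With auxin alone the log2 difference was -0.26 (95% interval -0.67 to 0.15, edgeR adjusted p 0.375), and FL against EV auxin gave 0.07 (95% interval -0.37 to 0.51, edgeR adjusted p 0.844). In bulk RNA, more cells with H19 and more H19 RNA per cell cannot be told apart.

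Igf2 (GRCm38 chr7:142650766-142666816, minus strand, gene ENSMUSG00000048583.16, protein coding) encodes insulin-like growth factor 2. It had 2.13, 1.66 and 1.76 CPM in EV untreated, 1.60 and 2.91 CPM in EV auxin, 5.11, 3.57 and 3.52 CPM in FL and 2.50, 2.36 and 2.46 CPM in H373R. All FL libraries were above all others. The EV auxin pair spanned both the EV untreated and the H373R range. Igf2 was 2.20-fold higher in FL than in EV untreated (log2 fold change 1.14 ± 0.200, SE, edgeR adjusted p 0.000429), which held in all 23 alternatives. FL exceeded EV auxin by 0.82 ± 0.225 (SE) on the log2 scale (edgeR adjusted p 0.0150). H373R lay below FL, at -0.76 ± 0.194 (SE, edgeR adjusted p 0.0311). These calls were less firm, and held in 17 and 15 of the 23 alternatives. On log2(TPM + 1) with limma the values were 0.53 (limma adjusted p 0.0611) for FL against EV auxin and -0.46 (limma adjusted p 0.145) for H373R against FL. Without FL replicate 1 the FL against EV auxin value was 0.60 (edgeR adjusted p 0.083), and without EV auxin replicate 1 it was 0.50 (edgeR adjusted p 0.165). The H373R to FL difference lost its call without FL replicate 1 (-0.54) or without any one of H373R replicates 1 (-0.78), 2 (-0.73) or 3 (-0.77), with edgeR adjusted p of up to 0.149. Between EV auxin and EV untreated the log2 difference was 0.32 (95% interval -0.20 to 0.83, edgeR adjusted p 0.403).

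H19 and Igf2 thus had different highest groups, H19 in H373R and Igf2 in FL. In the comparison of H373R with FL they were called with opposite signs, while with auxin alone neither was called. They were 2 of the 31 tested genes from Ap2a2 to Dhcr7, the stretch of chromosome 7 that holds both domains, and no other was called there. At 6.45% this share was near the 5.96% of all genes, and which of the 10 genes were called depended on the setting. H19 was called in all 23 alternatives and Igf2 in 15, while Cdkn1c was called as well in 3 and Tssc4 in 1. Igf2os, an antisense transcript that overlaps Igf2, had 0.264 CPM on average in EV untreated, 0.239 in EV auxin, 0.752 in FL and 0.532 in H373R. FL exceeded EV auxin by 1.61 ± 0.531 (SE, edgeR adjusted p 0.0379), from 2 to 19 counts per library. Whether the counting used strand is not stated, so reads of Igf2 and Igf2os could not be told apart.

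**Figure D3:**
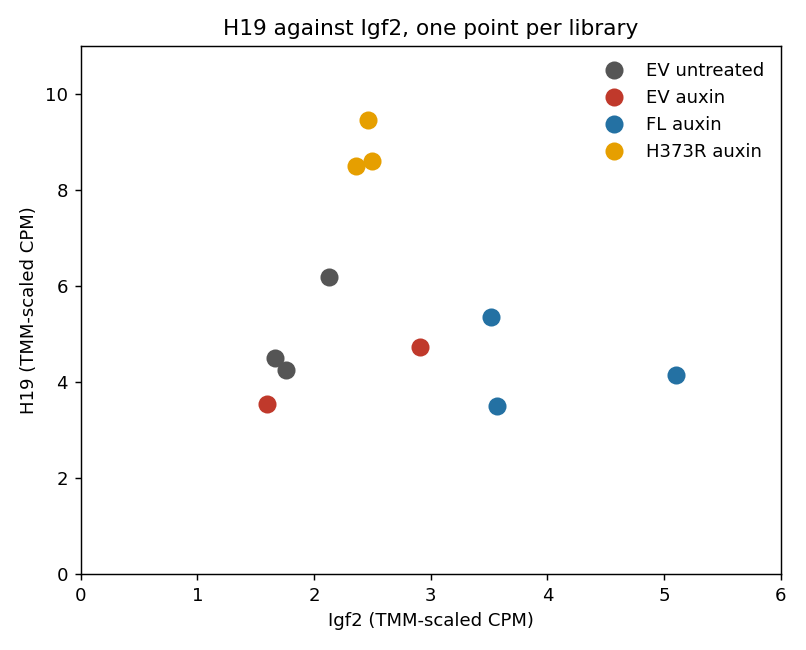
H19 against Igf2 in each of the 11 libraries (TMM-scaled CPM on both axes, linear), coloured by group. The 3 H373R libraries lie at high H19 with 2.36 to 2.50 CPM of Igf2, and the 3 FL libraries at high Igf2 with 3.49 to 5.35 CPM of H19.

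Primitive endoderm markers differed between the groups in which Igf2 differed, and also between others. Their summed level over 12 genes was 68.2 to 72.9 TPM in EV untreated, 63.5 to 66.2 in EV auxin, 146 to 153 in FL and 101 to 116 in H373R, with no marker at 0 counts in any group. Of the 12 markers, 10 were higher and 1 (Hnf4a) lower in FL than in EV auxin, and 5 were lower in H373R than in FL, where 24.5% and 5.96% of all tested genes were called. H373R had 10 of the 12 higher than EV auxin and 9 higher than EV untreated (21.7% and 44.4% of all genes called), while Igf2 was called in neither, at 0.06 (edgeR adjusted p 0.877) and 0.38 (edgeR adjusted p 0.155). With auxin in EV cells 1 of the 12 (Gata4) was higher and 1 (Lama1) lower, where 20.7% of all tested genes were called. Gata4 stood at 5.12, 8.14, 17.9 and 13.1 CPM in EV untreated, EV auxin, FL and H373R. Pdgfra, a growth factor receptor of that lineage, was not called with auxin. It stood at 3.91, 2.96, 12.7 and 6.41 CPM in the same order. Mesoderm and fibroblast markers summed to 76.6 to 82.7, 73.2 to 75.3, 105 to 122 and 92.1 to 97.8 TPM in the same order, with 6 of 9 tested markers higher in FL than in EV auxin (24.5% of all genes called), Lum at 0 in both EV groups and Postn at 0 in FL and H373R. The part of these markers in the Igf2 values was not tested. H19 was highest in H373R, whose libraries had sums of these lists between those of EV untreated and FL. The trophoblast marker sums given with Ascl2 were highest on average in H373R. Of the 8 trophoblast markers tested, though, 0 were called higher and 2 (Cdx2 and Krt8) lower in H373R than in FL. In that comparison 5.96% of all genes were called. The part of any of these lists in the H19 values was not tested.

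Kcnq1ot1 (GRCm38 chr7:143203458-143296549, minus strand, gene ENSMUSG00000101609.2, annotated as antisense) is the silencing RNA of the second domain and lies wholly within Kcnq1. It had 3.03, 2.50 and 1.65 CPM in EV untreated, 2.34 and 1.49 CPM in EV auxin, 1.00, 2.05 and 1.84 CPM in FL and 1.55, 0.708 and 1.88 CPM in H373R. All groups overlapped. The group means fell in that order from 2.39 to 1.38 CPM, but no difference was called, and the nearest was H373R against EV untreated at -0.76 ± 0.307 (SE, edgeR adjusted p 0.0553). Without a filter on low counts this difference was called at -0.75, and it was called in 3 of the 11 fits that left out a library: without EV untreated replicate 3 (-0.98), FL replicate 1 (-0.76) or H373R replicate 3 (-1.08). Kcnq1ot1 has the lowest GC content (40.3%) and the greatest exon length (93092 bases) of the 10 genes. With GC and length trends removed together the same difference was -0.014. The parts of GC content and of length in this change were not tested.

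Kcnq1 (GRCm38 chr7:143106362-143427042, plus strand, gene ENSMUSG00000009545.14, protein coding) encodes a voltage-gated potassium channel. It had 0.266, 0.245 and 0.735 CPM in EV untreated and 0.456 and 1.12 CPM in EV auxin. In FL it had 0.716, 0.759 and 1.07 CPM and in H373R 0.989, 1.08 and 1.12 CPM. The H373R libraries were above all EV untreated libraries and were the least spread. Kcnq1 was 2.49-fold higher in H373R than in EV untreated (log2 fold change 1.32 ± 0.373, SE, edgeR adjusted p 0.00954). This call held in 20 of 22 alternatives, and with limma on log2(TPM + 1) the difference was 0.52 without a call (limma adjusted p 0.0575, or 0.0578 without a TPM filter). Against EV untreated the difference was 1.00 ± 0.414 (SE, edgeR adjusted p 0.0705) in FL and 0.97 ± 0.447 (SE, edgeR adjusted p 0.147) in EV auxin, so that neither was called. Without EV untreated replicate 3, the highest of its group, these became 1.71 and 1.67 with edgeR adjusted p of 0.00773 and 0.0205. Kcnq1ot1 and Kcnq1 overlap on opposite strands, and whether their reads were kept apart is not stated.

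Cdkn1c (GRCm38 chr7:143458339-143461050, minus strand, gene ENSMUSG00000037664.13, protein coding) encodes p57, a cyclin-dependent kinase inhibitor that restrains growth. It had 46.7, 36.1 and 34.6 CPM in EV untreated, 52.7 and 51.0 CPM in EV auxin, 78.1, 61.7 and 65.9 CPM in FL and 55.8, 60.8 and 61.7 CPM in H373R. Every auxin-treated library was above every EV untreated library, and FL was above EV auxin without overlap. Against EV untreated, Cdkn1c was 1.75-fold higher in FL (log2 fold change 0.81 ± 0.103, SE, edgeR adjusted p 2.60e-05) and 1.51-fold higher in H373R (0.60 ± 0.102, SE, edgeR adjusted p 0.000227), and both calls held in all 23 alternatives. The rise with auxin alone was 0.40 ± 0.115 (SE, edgeR adjusted p 0.0217), and FL exceeded EV auxin by 0.41 ± 0.115 (SE, edgeR adjusted p 0.0172). These last calls were less firm. Without EV untreated replicate 2 (0.34) or 3 (0.31), or EV auxin replicate 1 (0.38) or 2 (0.41), the auxin difference was not called, with edgeR adjusted p of up to 0.131. Without EV auxin replicate 1 (0.43) or 2 (0.40) or FL replicate 1 (0.30), the FL difference was not called, with edgeR adjusted p of up to 0.128. H373R was lower than FL by -0.21 ± 0.101 (SE, edgeR adjusted p 0.249), and with EV untreated replicate 1 left out this became -0.23 with an edgeR adjusted p of 0.0167, and with GC and length trends removed it became -0.30 (edgeR adjusted p 0.000497). Without EV untreated replicate 1, H373R was also called higher than EV auxin, by 0.20 (edgeR adjusted p 0.0312). The primitive endoderm sums above were highest in FL, as Cdkn1c was, and their part was not tested.

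The related inhibitors did not share this pattern. Cdkn1a, which encodes p21, went from 114 to 66.1 CPM with auxin and stood at 98.5 CPM in FL and 112 CPM in H373R. Cdkn1b, which encodes p27, was called in none of the 6 comparisons and had group means of 56.8 to 60.1 CPM.

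Phlda2 (GRCm38 chr7:143501545-143503150, minus strand, gene ENSMUSG00000010760.5, protein coding) encodes a pleckstrin homology domain protein that limits placental growth. It had 70.0, 54.9 and 56.0 CPM in EV untreated and 58.1 and 60.7 CPM in EV auxin. In FL it had 74.1, 63.3 and 66.4 CPM and in H373R 64.4, 64.9 and 71.4 CPM. EV untreated replicate 1 lay among the FL and H373R libraries, and the other EV libraries lay below them. No difference was called, and that between H373R and FL was -0.02 (95% interval -0.21 to 0.16, edgeR adjusted p 0.914). Without EV untreated replicate 1, Phlda2 was called higher in FL and in H373R than in EV untreated, by 0.30 and 0.26 on the log2 scale, and than in EV auxin, by 0.21 and 0.18. With GC and length trends removed it was called higher in FL than in EV auxin, by 0.15 (edgeR adjusted p 0.0292).

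Ascl2 (GRCm38 chr7:142966829-142969264, minus strand, gene ENSMUSG00000009248.6, protein coding) encodes a basic helix-loop-helix transcription factor needed by trophoblast progenitors. It had 16.6, 11.7 and 11.1 CPM in EV untreated, 15.0 and 17.9 CPM in EV auxin, 21.7, 19.6 and 16.1 CPM in FL and 21.1, 20.1 and 20.3 CPM in H373R. The H373R libraries were above both EV groups, while FL overlapped both EV groups. Ascl2 was higher in H373R than in EV untreated by 0.63 ± 0.136 (SE, edgeR adjusted p 0.00145), which held in all 23 alternatives. It was higher in FL than in EV untreated by 0.53 ± 0.140 (SE, edgeR adjusted p 0.00799), which held in 21 of 23 alternatives. This call was lost without FL replicate 1 (0.42, edgeR adjusted p 0.0551). It was also lost with limma on log2(TPM + 1) without a TPM filter (0.50, limma adjusted p 0.0565). Between EV auxin and EV untreated the difference was 0.32 (edgeR adjusted p 0.166), and without EV untreated replicate 1 it was 0.54 (edgeR adjusted p 0.000752). Without that library H373R was called higher than EV auxin as well, by 0.31 (edgeR adjusted p 0.0148).

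Trophoblast markers were examined beside it. Their sums over 13 genes were 225 to 244 TPM in EV untreated, 248 to 264 in EV auxin, 234 to 266 in FL and 266 to 277 in H373R. Of the 8 markers tested, 3 were higher and 1 lower with auxin, where 20.7% of all genes were called. In H373R relative to EV untreated 6 were higher and 1 lower, where 44.4% of all genes were called, which included Krt18 (0.76 ± 0.0626, SE, edgeR adjusted p 2.48e-07) among the higher and Tfap2c (-0.30 ± 0.0466, SE, edgeR adjusted p 9.76e-05) as the lower. In FL 3 were higher and 1 lower than in EV auxin (24.5% of all genes called), and 4 and 1 than in EV untreated (36.9%). H373R had 2 higher and 0 lower than EV auxin (21.7%), and 0 and 2 against FL (5.96%). The part of these markers in the Ascl2 values was not tested.

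Cd81 (GRCm38 chr7:143052739-143067934, plus strand, gene ENSMUSG00000037706.17, protein coding) encodes a tetraspanin, a membrane protein that organises other proteins at the cell surface. It had 131, 125 and 126 CPM in EV untreated, 88.8 and 96.7 CPM in EV auxin, 142, 139 and 127 CPM in FL and 129, 136 and 131 CPM in H373R. Both EV auxin libraries were below every other library, and the other groups overlapped. Cd81 was 1.37-fold lower in EV auxin than in EV untreated (log2 fold change -0.46 ± 0.0599, SE, edgeR adjusted p 5.83e-05). It was higher than in EV auxin by 0.55 ± 0.0604 (SE, edgeR adjusted p 1.93e-05) in FL and by 0.51 ± 0.0600 (SE, edgeR adjusted p 7.50e-05) in H373R. These calls held in all 23 alternatives, and all of them rest on the same 2 EV auxin libraries. H373R and FL differed by -0.04 (95% interval -0.15 to 0.07, edgeR adjusted p 0.733). Against EV untreated the intervals were -0.02 to 0.20 for FL and -0.06 to 0.16 for H373R.

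R74862, a neighbouring transcript on the opposite strand, overlaps the start of Cd81. It moved by -0.56 (edgeR adjusted p 0.0252) between EV auxin and EV untreated, with 29 to 77 counts per library against 1557 to 3930 for Cd81. Cd9, another tetraspanin, was 0.23 lower with auxin (log2 fold change -0.23 ± 0.0509, SE, edgeR adjusted p 0.00412) and higher than EV auxin in FL (0.29 ± 0.0513, SE, edgeR adjusted p 0.000853) and H373R (0.25 ± 0.0510, SE, edgeR adjusted p 0.00328).

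Slc22a18 and Tssc4 gave no call in any comparison. Slc22a18 (GRCm38 chr7:143473736-143499334, plus strand, gene ENSMUSG00000000154.16, protein coding), which encodes an organic cation transporter-like protein, ranged from 2.01 to 3.06 CPM in EV untreated, 2.05 to 2.82 in EV auxin, 2.60 to 3.20 in FL and 3.23 to 3.40 in H373R. The H373R libraries were above all others, by 0.36 ± 0.156 (SE, edgeR adjusted p 0.0720) against EV untreated, and without EV untreated replicate 1 this was called at 0.52 (edgeR adjusted p 0.0111). Tssc4 (GRCm38 chr7:143069249-143071093, plus strand, gene ENSMUSG00000045752.13, protein coding) ranged from 19.2 to 27.2 CPM in EV untreated, 20.5 to 22.5 in EV auxin, 21.2 to 26.4 in FL and 20.2 to 22.0 in H373R. All groups overlapped, and the highest group mean was 1.10 times the lowest, the smallest spread of the 10 genes. With GC and length trends removed, Tssc4 was called lower with H373R, against EV untreated (-0.38) and against FL (-0.23).

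The genes next to the domains were listed from their map positions. Of 15 genes beside H19 and Igf2, 10 were tested, and with auxin 2 were higher and 1 lower, where 20.7% of all tested genes were called. Mrpl23, a mitochondrial ribosomal protein gene and the closest tested neighbour of H19 on the side away from Igf2, had 6.86 CPM on average in EV untreated, 3.53 in EV auxin, 4.26 in FL and 3.50 in H373R. It was lower than in EV untreated in EV auxin (-0.95 ± 0.159, SE, edgeR adjusted p 0.000524), in FL (-0.67 ± 0.139, SE, edgeR adjusted p 0.00154) and in H373R (-0.97 ± 0.136, SE, edgeR adjusted p 4.11e-05). Brsk2, a neuronal kinase gene, and Lsp1, a leukocyte actin-binding protein gene, were higher with auxin by 0.77 ± 0.247 (SE, edgeR adjusted p 0.0375) and 0.82 ± 0.269 (SE, edgeR adjusted p 0.0421). In FL against EV auxin 2 of the 10 were higher (24.5% of all genes called), in H373R against EV auxin 1 was higher (21.7%), and in H373R against FL none was called (5.96%), at a smallest edgeR adjusted p of 0.297.

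Of 12 genes beside the Kcnq1 domain, 9 were tested, and 2 were higher and none lower with auxin, where 20.7% of all tested genes were called. Mrgpre, a receptor gene, rose from 0.558 to 1.38 CPM (log2 fold change 1.27 ± 0.270, SE, edgeR adjusted p 0.00339) and stood at 1.06 CPM in FL and 1.15 CPM in H373R. Osbpl5, a lipid transfer protein gene, was higher by 0.37 ± 0.127 (SE, edgeR adjusted p 0.0487), and Tspan32, a tetraspanin gene, moved by 0.82 ± 0.307 (SE, edgeR adjusted p 0.0738). Both FL and H373R had 3 of the 9 higher and none lower than EV untreated (Tspan32, Osbpl5 and Mrgpre in each), where 36.9% and 44.4% of all genes were called. Over the whole window of 31 tested genes, 8 (25.8%) were called with auxin, beside 20.7% of all tested genes. FL against EV auxin gave 8 (25.8%, beside 24.5%), H373R against EV auxin 5 (16.1%, beside 21.7%) and H373R against FL 2 (6.45%, beside 5.96%). Against EV untreated 10 (32.3%, beside 36.9%) were called in FL and 11 (35.5%, beside 44.4%) in H373R. The window's shares were thus near those of all genes.

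**Figure D4:**
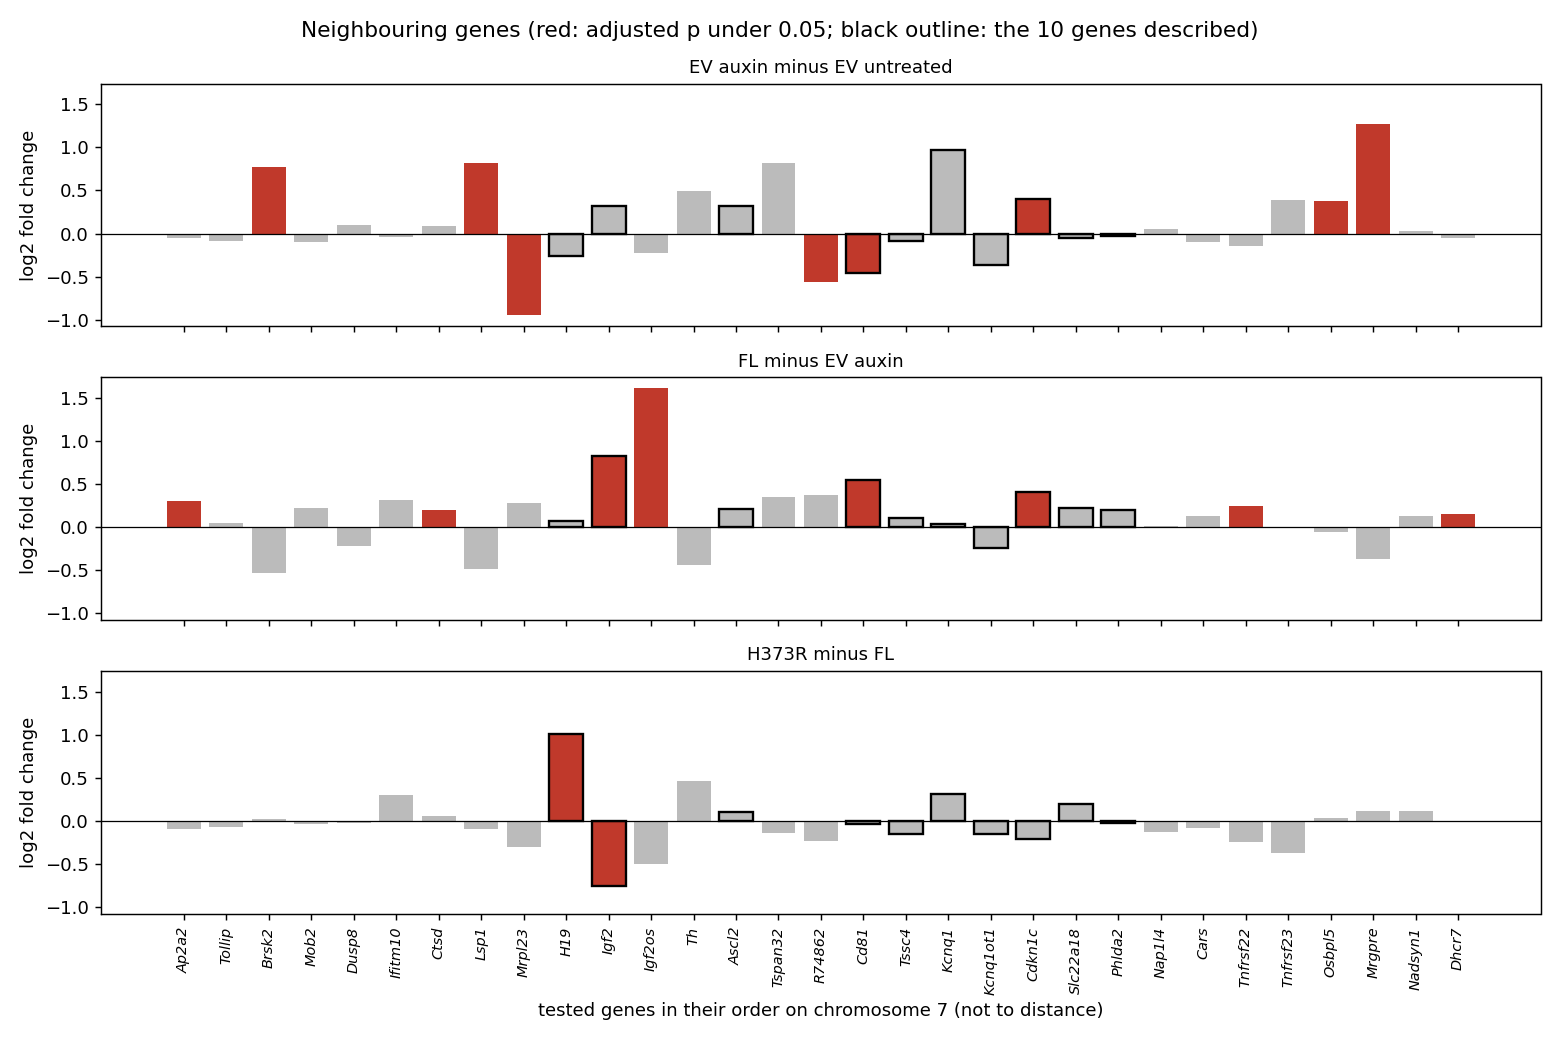
Log2 fold change of the 31 tested genes of the region in map order, for auxin in EV cells, for FL relative to EV auxin and for H373R relative to FL, with red bars for an edgeR adjusted p under 0.05 and black outlines for the 10 genes. In the panel of H373R relative to FL the adjacent H19 (1.01) and Igf2 (-0.76) are the 2 red bars.

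Of 19 genes of insulin-like growth factor signalling, the pathway that Igf2 feeds, 16 were tested. With auxin 4 were higher and 3 lower, where 11.3% of all tested genes were higher and 9.4% lower. Igfbp3 and Igfbp5 encode proteins that bind the growth factors outside cells. Igfbp3 went from 31.5 CPM in EV untreated to 63.9 CPM in EV auxin, 52.2 in FL and 57.4 in H373R, a log2 fold change with auxin of 1.02 ± 0.0686 (SE, edgeR adjusted p 4.79e-08). Igfbp5 went from 2.96 CPM to 6.23, 3.21 and 5.00 CPM, and was higher in H373R than in FL by 0.64 ± 0.137 (SE, edgeR adjusted p 0.0109). Stc2, which encodes an inhibitor of the protease that frees the growth factors, went from 102 to 133 CPM with auxin (0.39 ± 0.0554, SE, edgeR adjusted p 0.000133) and stood at 101 and 110 CPM in FL and H373R. In FL against EV auxin 3 were higher and 7 lower (24.5% of all genes called), in H373R against EV auxin 1 and 4 (21.7%), and in H373R against FL 1 and 2 (5.96%). Against EV untreated the counts were 5 and 5 in FL (36.9%) and 4 and 5 in H373R (44.4%).

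Of 23 factors that keep or read imprints, all 23 were tested, and with auxin 4 were higher and 3 lower, where 20.7% of all tested genes were called. Dnmt3b, a DNA methyltransferase gene, rose from 169 to 217 CPM (log2 fold change 0.36 ± 0.0464, SE, edgeR adjusted p 4.98e-05). Ctcfl, the germ cell paralogue of Ctcf, had 3.05 CPM in EV untreated and 1.69, 1.56 and 1.80 CPM in EV auxin, FL and H373R, with -0.86 ± 0.172 (SE, edgeR adjusted p 0.00206) for auxin. Dppa3, which protects maternal methylation in the early embryo, had 15.2, 31.4, 12.4 and 16.1 CPM in the same order. The counts of higher and lower genes were 2 and 4 in FL against EV auxin (24.5% of all genes called), 1 and 7 in H373R against EV auxin (21.7%), 1 and 3 in H373R against FL (5.96%), 5 and 5 in FL against EV untreated (36.9%) and 4 and 7 in H373R against EV untreated (44.4%). Of 15 family members of the 10 proteins 12 were tested, and beside the same shares of all genes the counts were 2 and 5 with auxin, 6 and 0 in FL against EV auxin, 4 and 0 in H373R against EV auxin, 1 and 0 in H373R against FL, 4 and 3 in FL against EV untreated and 5 and 2 in H373R against EV untreated. Phlda3, of the same family as Phlda2, had 85.1 CPM in EV untreated and 47.4, 68.2 and 72.6 CPM in EV auxin, FL and H373R, and was lower with auxin by -0.84 ± 0.137 (SE, edgeR adjusted p 0.000393).

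H19, Igf2 and Kcnq1 had at least a 2-fold difference between their highest and lowest group means (2.14, 2.19 and 2.56). For these, the tested genes with the most similar pattern over the 11 libraries were found by the root mean square difference of centred log2 CPM, where a flat gene would score 0.49, 0.48 and 0.66. The nearest to H19 were Fam187b (0.237), Foxo6 (0.238) and Gm6169 (0.246). Foxo6 stood at 6.30, 5.74, 6.15 and 8.99 CPM in EV untreated, EV auxin, FL and H373R. The nearest to Igf2 were Tmem106a (0.199), Gm23935 (0.205) and Galnt9 (0.219), with Tmem106a at 3.12, 3.25, 5.72 and 4.34 CPM in the same order. The nearest to Kcnq1 were Fam151a (0.313), St3gal1 (0.329) and Msx3 (0.334). These distances share libraries and depth and are a description only.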

How the data were processed

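RNA was measured in 11 libraries. Per the labels, total RNA went into a strand-specific Illumina library kit. The authors deposited raw counts per gene symbol and TPM for the same libraries. The submitters' processing notes name featureCounts, Subread 2.0.3, DESeq2 and mm10 (GRCm38), with no role or order. The aligner, annotation, trimming and use of strand in counting are not given in the sources used here. The deposited TPM carry the same reads as the counts: count divided by TPM gave 1 fixed length per gene, within 1% of summed GENCODE M21 exons for 98.8% of 17907 genes and for all 10 genes described. GENCODE M21 (GRCm38) gave coordinates, length and GC content.

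The test was that of edgeR 4.0.16 under R 4.3.3 (TMM, filterByExpr by group, group-means model over all 11 libraries, quasi-likelihood F test, Benjamini-Hochberg over 16420 genes, adjusted p under 0.05). Standard errors are the log2 fold change divided by the square root of F, and 95% intervals use the total degrees of freedom of the test. These are the residual degrees of freedom plus those that edgeR borrows across genes. CPM values carry TMM factors, and SDs are over the libraries of a group. The tested genes and this fit are those of the whole table, and only rows of the genes and lists described are printed. Depth was 13465241 to 29902246 counts per library, and the common biological coefficient of variation was 0.0578.

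The named genes are the 10 genes, up to 3 genes of each other list with the smallest adjusted p for auxin in EV cells, and the 3 genes most like each gene with a 2-fold range (likeness on log2 CPM with a prior count of 2). Cdkn1b, Igf2os, R74862 and Hnf4a were named after their values were seen. The genes and lists were chosen with earlier results of these data known. Replicate numbers shared between groups were not taken as pairs. Of 15 same-numbered pairs 3 had correlated deviations over 0.1 (-0.087 to 0.28), against 1 of 30 pairs with different numbers (-0.20 to 0.13). These values do not settle whether the libraries were paired.

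Other settings tried were DESeq2 1.42.0, scaling by RLE or upper quartile, all genes unfiltered, genes with 10 or more counts in each library, fits of just the 2 groups compared, a replicate block, a threshold of 0.01, limma 3.58.1 on log2(TPM + 1) where TPM reached 1 in 2 libraries, the same with 0.1 as pseudocount or without that filter, each library left out, and, added after seeing the data, removal of GC and length trends. On simulated counts of 16420 genes, 200 of them changed 2-fold by auxin in EV cells, 84.5% were found by edgeR with 5 false calls.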

Additional observations from a re-analysis of the deposited data

Results flagged for a closer look

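H19 and Igf2 differed between cells with H373R CTCF and cells with FL CTCF under the same auxin treatment, by a direct test of that difference. For H19 the log2 difference between H373R and FL was 1.01 (edgeR adjusted p 0.00150), higher in all 3 H373R libraries than in all 3 FL libraries. For Igf2 it was -0.76 (edgeR adjusted p 0.0311), lower in all 3 H373R libraries than in all 3 FL libraries. The H19 call held in all 23 alternatives. The Igf2 call held in 15 of 23, and was lost in the 3 limma settings (limma adjusted p 0.145 to 0.243), at an adjusted p under 0.01, and without FL replicate 1 (-0.54) or any one of H373R replicates 1 (-0.78), 2 (-0.73) or 3 (-0.77). No other of the 10 genes was called in this comparison under the settings of the report. The cause of either difference was not tested.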

How the results depend on the processing

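RLE scaling, upper quartile scaling and DESeq2 changed no direction and no call of the 10 genes in the 6 comparisons. The number of genes called was 1 in place of 2 for EV auxin against EV untreated with only the 2 groups compared, with an adjusted p under 0.01 and with limma on log2(TPM + 1) without a TPM filter (Cd81 in each). It was 1 in place of 3 for FL against EV auxin (Cd81) and 1 in place of 2 for H373R against FL (H19) with an adjusted p under 0.01 and in all 3 limma settings. For H373R against EV auxin it was 4 without a filter and 5 with only the 2 groups compared, in place of 2. It was 4 for H373R against FL with GC and length trends removed, and 6 in place of 3 for FL against EV untreated without a filter. With libraries left out in turn, the counts ran from 1 to 3 for EV auxin against EV untreated, 1 to 4 for FL against EV auxin, 2 to 5 for H373R against EV auxin, 1 to 3 for H373R against FL, 2 to 4 for FL against EV untreated and 4 to 6 for H373R against EV untreated. The cause of these changes was not tested.

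Every change of sign was in a difference called in neither setting. On log2(TPM + 1), log2(TPM + 0.1) and without a TPM filter, Phlda2 turned to 0.012 for auxin in all 3 and to 0.0090 for H373R against FL in all 3, H19 to -0.0036, -0.0048 and -0.0036 for FL against EV auxin, and Tssc4 to -0.0077 in all 3 for FL against EV untreated. With GC and length trends removed, Kcnq1ot1 turned to 0.13 for FL and 0.11 for H373R against EV auxin and 0.014 for FL against EV untreated, Tssc4 to -0.15 for FL against EV untreated, and Phlda2 to -0.011 and Cd81 to -0.0047 for H373R against EV untreated. With a library left out, the ranges that crossed 0 were, for auxin, -0.24 to 0.63 (Igf2), -0.092 to 0.087 (Phlda2), -0.34 to 0.13 (Slc22a18) and -0.19 to 0.050 (Tssc4). For FL against EV auxin they were -0.11 to 0.33 (H19), -0.56 to 0.074 (Kcnq1ot1), -0.39 to 0.91 (Kcnq1) and -0.0050 to 0.17 (Tssc4), and for H373R against EV auxin -0.25 to 0.61 (Igf2), -0.074 to 1.21 (Kcnq1) and -0.11 to 0.026 (Tssc4). For H373R against FL they were -0.016 to 0.22 (Ascl2), -0.47 to 0.13 (Kcnq1ot1) and -0.083 to 0.045 (Phlda2). Against EV untreated they were -0.38 to 0.017 (H19) and -0.092 to 0.18 (Tssc4) for FL and -0.22 to 0.019 (Tssc4) for H373R.

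With the replicate number as a block, 2, 3, 2, 2, 4 and 4 genes were called in the 6 comparisons in the order of the report. The block added Kcnq1 for FL against EV untreated (1.01, edgeR adjusted p 0.042), turned Kcnq1 to -0.12 for FL against EV auxin and changed no other call. Of the 11 libraries 7 correlated best with a library of their own number. Only 3 of 15 same-numbered pairs exceeded 0.1, against 1 of 30 pairs with different numbers. The numbers were not taken as pairs in the main fit, and whether they mark pairs is not settled by these values.

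Over all tested genes the number called depended on the libraries: 3392 for EV auxin against EV untreated became 2016 with only the 2 groups compared, 5444 without EV untreated replicate 1, 2036 and 1569 without EV auxin replicates 1 and 2, and 1939 at an adjusted p under 0.01. For FL against EV auxin 4016 became 2169 at an adjusted p under 0.01 and 2186 and 1879 without EV auxin replicates 1 and 2. For H373R against EV auxin 3570 became 5909 with only the 2 groups compared, 5397 without EV untreated replicate 1, 1502 and 1536 without EV auxin replicates 1 and 2, 1843 at an adjusted p under 0.01 and 2335 with limma without a TPM filter. For H373R against FL 979 became 1815 with only the 2 groups compared, 2323 without EV untreated replicate 1, 510 to 617 without 1 of FL replicates 2 and 3 or H373R replicates 1 to 3, 2176 with GC and length trends removed, 436 at an adjusted p under 0.01 and 588 with limma without a TPM filter. For FL against EV untreated 6052 became 3980 at an adjusted p under 0.01. With TPM on the log2(TPM + 1) scale the share of higher genes among those called was 28.1% in place of 45.2% for FL against EV auxin, 35.4% in place of 46.1% for H373R against EV auxin and 65.0% in place of 52.7% for H373R against FL, and without a TPM filter 36.9% in place of 47.9% for FL against EV untreated. Depth limited Kcnq1 most, with 5 to 29 counts per library, followed by Kcnq1ot1 with 15 to 91.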
